A study of Mus musculus with 7 samples.

Results

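The genes that govern how pyruvate enters the mitochondrion and is burned there were read in mouse left ventricle. The set holds 10 genes, chosen by their mouse symbols from a table of 22027 Ensembl genes: the pyruvate dehydrogenase kinases Pdk1, Pdk2, Pdk3 and Pdk4, the phosphatases Pdp1 and Pdp2, the E1 subunits Pdha1 and Pdhb, and the carrier subunits Mpc1 and Mpc2. All 10 were listed once and all 10 passed the filter on low counts.

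The study's 7 libraries are messenger RNA sequencing of left ventricle from C57BL/6J mice aged 12 months. There were 3 libraries labelled G3 PGC1aOE, from telomerase-deficient mice described as overexpressing PGC1alpha, and 4 labelled G3, from telomerase-deficient mice with no such label. Every mouse thus carried the telomerase deficiency, and no telomerase-competent group was part of the comparison. The labels do not give the telomerase allele, or the promoter and cell type that drive the PGC1alpha transgene. Nothing in them ties a library to its own mouse or litter, and the p-values therefore cover the spread among these 7 libraries, which may be partly technical. Each sample also carries a code of unstated meaning. It begins with the letters PCG in all 3 libraries labelled G3 PGC1aOE, and with CG, CG, G and PG in G3 1 to 4. The digit after the G is 2 in the libraries labelled G3 PGC1aOE 1, G3 1 and G3 3, and 3 in the other 4, although every title reads G3. The last number in it was 55, 81 and 82 in the libraries labelled G3 PGC1aOE 1 to 3 and 40, 67, 50 and 83 in G3 1 to 4.

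Pyruvate made by glycolysis crosses the inner mitochondrial membrane through a carrier built from MPC1 and MPC2. The pyruvate dehydrogenase complex then turns it into acetyl-CoA, and its E1 enzyme, a tetramer of alpha chains (Pdha1) and beta chains (Pdhb), does the first step. The kinases PDK1 to PDK4 phosphorylate the alpha chain and switch the enzyme off, and the phosphatases PDP1 and PDP2 switch it back on. In heart the balance between them helps set whether glucose or fatty acid is burned. Pdk4 is known as the isoform whose message rises in fasting, under fatty acids and through PPAR and estrogen-related receptors, for which PGC1alpha is a coactivator.

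The bases just before the start of 4 of the genes are shown because these are the kinase with the highest mean FPKM, the kinase and the phosphatase with the largest differences between groups, and the beta chain gene. Sequences were matched by symbol in a RefSeq promoter table for GRCm38.p6, which held 9 of the 10 genes, without Pdp1. Each window is the 250 bases before the annotated start, given 5′ to 3′. Capitals mark CCAAT or its reverse complement ATTGG, a promoter element bound by the factor NF-Y.
Pdk2: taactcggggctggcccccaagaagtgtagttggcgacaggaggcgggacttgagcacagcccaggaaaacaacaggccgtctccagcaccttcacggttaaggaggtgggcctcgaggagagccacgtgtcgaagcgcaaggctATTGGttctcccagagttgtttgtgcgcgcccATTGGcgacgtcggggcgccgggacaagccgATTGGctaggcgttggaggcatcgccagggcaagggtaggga
Pdk4: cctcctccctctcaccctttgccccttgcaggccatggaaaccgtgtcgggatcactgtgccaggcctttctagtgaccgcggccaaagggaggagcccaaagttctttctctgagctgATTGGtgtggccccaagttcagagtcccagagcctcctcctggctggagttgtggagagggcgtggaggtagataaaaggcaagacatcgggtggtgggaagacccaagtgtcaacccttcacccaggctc
Pdp2: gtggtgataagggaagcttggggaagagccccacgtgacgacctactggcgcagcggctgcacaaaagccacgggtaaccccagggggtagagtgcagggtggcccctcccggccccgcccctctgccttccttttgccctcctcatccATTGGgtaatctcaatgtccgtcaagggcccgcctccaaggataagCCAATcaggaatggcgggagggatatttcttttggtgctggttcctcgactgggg
Pdhb: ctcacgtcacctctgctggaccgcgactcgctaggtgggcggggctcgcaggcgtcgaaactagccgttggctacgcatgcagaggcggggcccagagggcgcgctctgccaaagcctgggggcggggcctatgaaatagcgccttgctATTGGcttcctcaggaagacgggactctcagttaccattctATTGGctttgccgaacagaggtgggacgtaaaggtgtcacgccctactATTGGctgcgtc
The Pdk2 window lies at chr11:95041372-95041621 on the minus strand and the Pdk4 window at chr6:5496279-5496528 on the minus strand. The Pdp2 window lies at chr8:104591222-104591471 on the plus strand and the Pdhb window at chr14:8172993-8173242 on the minus strand. CCAAT, read on both strands, stood in the windows of 7 of the 9 genes, beside 33.8% of the 32536 distinct windows in the table. The windows of Pdk2 and Pdhb held 3 copies each, and 2.78% of all windows held at least 3. Those of Pdk1 and Pdha1 held none. The element TCAAGGTCA of estrogen-related receptors and the shorter nuclear receptor element AGGTCA that it contains were in none of the 9 windows, beside 0.375% and 14% of all windows. The E-box CACGTG was in the windows of Pdk2 and Pdp2, beside 6.04% of all windows.

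Total counts ran from 10106705 to 16056740 per library. Ppargc1a, which encodes PGC1alpha, stood at 103 CPM, 43.9 CPM and 58.1 CPM in the libraries labelled G3 PGC1aOE 1 to 3, against 94.7, 56.8, 118 and 86.7 CPM in G3 1 to 4. The overexpression that the label names was thus not seen as a higher message, the groups overlapped, and each direction below rests on the label alone (log2 fold change −0.38, SE 0.34, edgeR adjusted p = 0.847). CPM here are counts scaled to the TMM-adjusted library size, and a log2 fold change is the libraries labelled G3 PGC1aOE minus G3. The library labelled G3 PGC1aOE 2 stood apart. In it, 247 of 12674 tested genes (1.95%) were at least 2-fold below all other libraries, against at most 82 such genes in any other library. It also held the lowest value of 8 of the 10 genes described here, often by less than 2-fold. The share of all tested genes that were lowest in this library was not counted. With tested genes in 3 equal bins by length, the shortest genes lay at a median of 0.27 from their own mean on the log2 CPM scale in this library, and the longest at −0.23. The library labelled G3 PGC1aOE 3 leaned the same way (0.16 and −0.13). Those labelled G3 PGC1aOE 1 (−0.14 and 0.17), G3 1 (−0.11 and 0.078) and G3 3 (−0.13 and 0.11) leaned the other way. G3 2 (−0.014 and 0.044) and G3 4 (0.019 and 0.0084) lay near 0. Mitochondrially encoded genes took 27.7% to 42.4% of counts in the libraries labelled G3 PGC1aOE and 24.7% to 34.5% in G3.

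None of the 10 genes passed the test, and nor did any other gene. edgeR's quasi-likelihood test with Benjamini-Hochberg adjustment over all 12674 tested genes called 0 (0.0% of genes), with 548 at an unadjusted p under 0.05 (4.32%). DESeq2 called 3 genes (0.0237%) and none of the 10. By the fitted fold change, 8 of the 10 genes were lower in the libraries labelled G3 PGC1aOE and 2 higher, with a median of −0.32, beside 49.1% of all tested genes lower and a median of 0.0076. At an unadjusted p under 0.05 stood Pdk4 and Pdp2, both lower, as did 1.27% of tested genes in that direction. A log2 fold change of −1 or less was fitted for the same pair and for 0.513% of tested genes. Values of 3 genes, Pdk2, Pdp2 and Pdha1, were lower in every library labelled G3 PGC1aOE than in every G3 library, as were 2.38% of tested genes. None of the 10 was higher in every one, beside 2.19% of tested genes, and the share of tested genes without overlap in either direction was 4.58%.

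**Figure D1:**
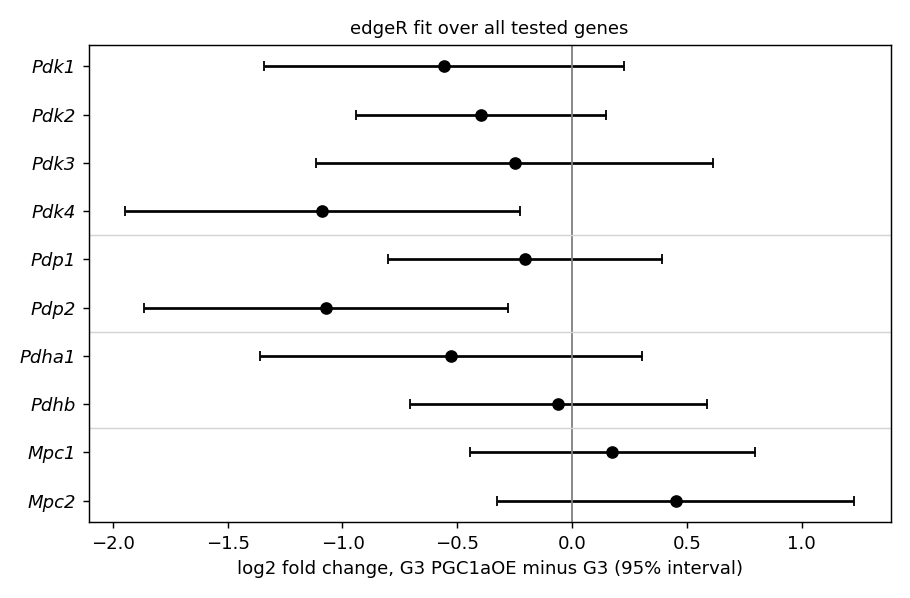
Fitted log2 fold change of each gene (x axis, libraries labelled G3 PGC1aOE minus G3) with its 95% interval, from kinases at the top to carrier subunits at the bottom. The intervals of Pdk4 and Pdp2 lie below 0 before adjustment for the number of genes, and those of the other 8 genes include 0.

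Pdk4 had the largest fitted difference of the 10 genes. It measured 280.5 CPM, 146 CPM and 181 CPM in the libraries labelled G3 PGC1aOE 1 to 3, against 263, 278, 589 and 592 CPM in G3 1 to 4. The 4 G3 libraries thus fell into a lower and a higher pair, and the library labelled G3 PGC1aOE 1 lay just above the lower pair, so the groups overlapped. The codes of the lower G3 pair begin with CG and those of the higher pair with G and PG, a split noticed after the values were seen and not tested. The means were 202 ± 69.9 CPM (SD, n = 3) in the libraries labelled G3 PGC1aOE and 430.2 ± 185 CPM (SD, n = 4) in G3. Its fitted log2 change was −1.09 ± 0.39 (SE, 95% interval −1.95 to −0.23, edgeR adjusted p = 0.847). A 2-sided exact permutation test of log2 CPM, with 35 possible arrangements, gave p = 0.171. The code numbers split the libraries unevenly. Below 80 stood 1 library labelled G3 PGC1aOE and 3 G3 libraries, with log2 CPM of Pdk4 apart by −0.32, and at 80 and above stood 2 and 1, apart by −1.87. The fitted value was −0.90 without the library labelled G3 PGC1aOE 2, and over all 7 omissions it ran from −1.40 without the library labelled G3 PGC1aOE 1 to −0.89 without G3 4.

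Pdk2, the kinase that most tissues hold, varied least among the kinases, with 1.87-fold between its highest and lowest library. It stood at 273, 288 and 233 CPM in the libraries labelled G3 PGC1aOE 1 to 3, against 296, 324, 338 and 435 CPM in G3 1 to 4. The highest library labelled G3 PGC1aOE was thus just under the lowest G3 library. The means were 265 ± 28.4 CPM (SD, n = 3) in the libraries labelled G3 PGC1aOE and 348 ± 60.3 CPM (SD, n = 4) in G3, a fitted log2 change of −0.40 ± 0.25 (SE, edgeR adjusted p = 0.847, exact permutation p = 0.0571). Gm11513, a gene on the opposite strand, overlaps Pdk2 in the GENCODE annotation, and a kit without strand cannot tell their reads apart.

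Pdk1 is the isoform known to be raised by hypoxia through HIF1. Its levels were 144 CPM, 53.3 CPM and 74.0 CPM in the libraries labelled G3 PGC1aOE 1 to 3, against 145, 94.4, 174 and 118 CPM in G3 1 to 4. The library labelled G3 PGC1aOE 1 was level with G3 1, and the other two lay below every G3 library. By the fit, the log2 change was −0.56 ± 0.35 (SE, edgeR adjusted p = 0.847, exact permutation p = 0.171). It was −0.29 without the library labelled G3 PGC1aOE 2 and −1.07 without the library labelled G3 PGC1aOE 1. Pdk3, an isoform known mainly from testis and brain, had few reads. It ranged from 1.67 to 3.26 CPM in the libraries labelled G3 PGC1aOE and from 1.80 to 4.38 CPM in G3, from 23 to 50 counts a library, and the groups overlapped (log2 fold change −0.25, SE 0.39, edgeR adjusted p = 0.893).

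**Figure D2:**
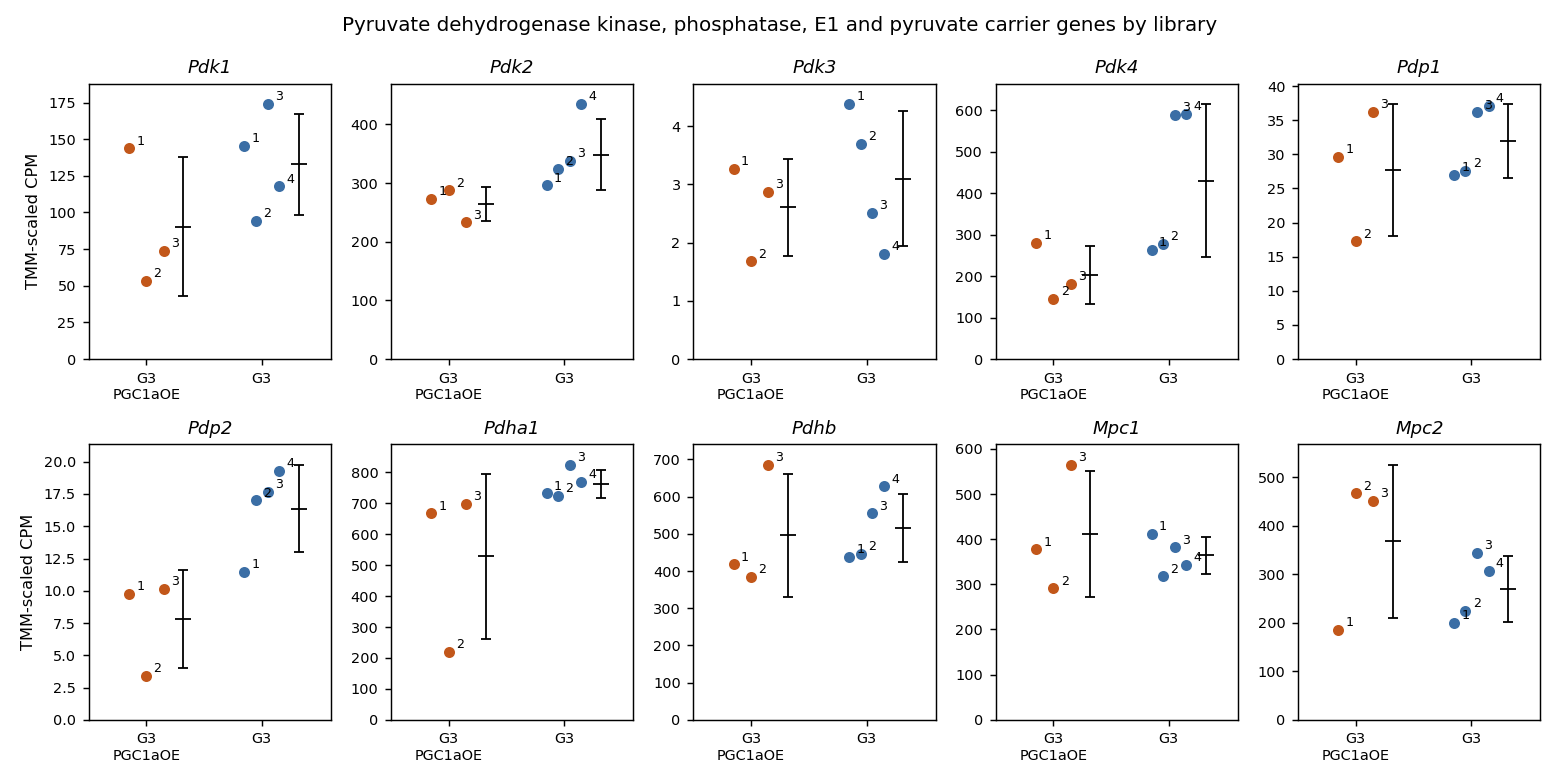
TMM-scaled CPM of each gene (y axis, from 0) in the 3 libraries labelled G3 PGC1aOE (left, orange) and the 4 G3 libraries (right, blue), with replicate numbers beside the points and the mean ± SD as a black mark. Pdk4 splits the G3 libraries into a pair at 263 and 278 CPM and a pair at 589 and 592 CPM, and Pdha1 is low in 1 library only, at 220.0 CPM.

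Genes were compared with each other per length, from the deposited FPKM. Pdha1 averaged 439 FPKM in the libraries labelled G3 PGC1aOE and 677 FPKM in G3, and Mpc1 573 FPKM in the libraries labelled G3 PGC1aOE and 557 FPKM in G3. Both stood above 98.8% of tested genes by mean FPKM. Among kinases, Pdk2 averaged 273 FPKM in the libraries labelled G3 PGC1aOE and 382 FPKM in G3, and Pdk4 134 FPKM in the libraries labelled G3 PGC1aOE and 292 FPKM in G3. Pdk3 averaged 2.44 FPKM in the libraries labelled G3 PGC1aOE and 3.16 FPKM in G3, and Pdp2 2.16 FPKM in the libraries labelled G3 PGC1aOE and 4.83 FPKM in G3, and no other of the 10 genes was as low. The phosphatases stood lower than Pdk2 and Pdk4, with Pdp1 above 60.5% and Pdp2 above 32.8% of tested genes. Pdk2 and Pdk4 together made up most of the kinase message in every library, and by FPKM Pdk2 was the larger of the pair in all libraries but G3 3. By CPM, which takes no account of length, Pdk4 was the larger in the library labelled G3 PGC1aOE 1, G3 3 and G3 4. Its log2 ratio to Pdk2 there was 0.038, 0.80 and 0.44. The share of Pdk4 in the summed FPKM of the 4 kinases was 33.4%, 22.4% and 29.4% in the libraries labelled G3 PGC1aOE 1 to 3, against 30.6%, 31.7%, 46.2% and 42.8% in G3 1 to 4. The mean share was 28.4% ± 5.58 (SD, n = 3) in the libraries labelled G3 PGC1aOE and 37.8% ± 7.86 (SD, n = 4) in G3. The ranges overlapped, with G3 1 and G3 2 among the libraries labelled G3 PGC1aOE. The share of Pdk2 was 51.8%, 70.4% and 60.03% in the libraries labelled G3 PGC1aOE 1 to 3, against 54.7%, 58.8%, 42.2% and 49.98% in G3 1 to 4. Pdk1 held 6.80% to 14.2% of kinase FPKM in the libraries labelled G3 PGC1aOE and 7.06% to 14.0% in G3, and Pdk3 held under 1% in each library. No p is given for shares and ratios, because the genes were chosen with earlier results known.

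The shares of Pdk4 and Pdk2 differed more among libraries with code numbers of 80 and above, and that of Pdk1 did not, at 1.31 points there and 2.78 points below 80. Below 80 the library labelled G3 PGC1aOE 1 stood alone for its group, and at 80 and above G3 4 did. At 80 and above the Pdk4 share of the libraries labelled G3 PGC1aOE minus that of G3 was −16.9 percentage points, and among code numbers below 80 it was −2.70 points. The Pdk2 share differed by 15.3 points at 80 and above and by −0.095 points below 80. Without the library labelled G3 PGC1aOE 2 the difference in Pdk4 share was −6.40 points, beside −9.40 over all libraries. The Pdk2 share differed by 9.34 points over all libraries, by 4.50 without the library labelled G3 PGC1aOE 2, by 6.26 without G3 3 and by 13.8 without the library labelled G3 PGC1aOE 1. Levels per length depend on the length used, and the lengths behind the deposited FPKM were 937 bases for Pdk2 and 1490 for Pdk4, where the longest GENCODE coding transcripts have 2246 and 3484. With the GENCODE lengths the Pdk4 share averaged 29.4% in the libraries labelled G3 PGC1aOE and 39.0% in G3.

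**Figure D3:**
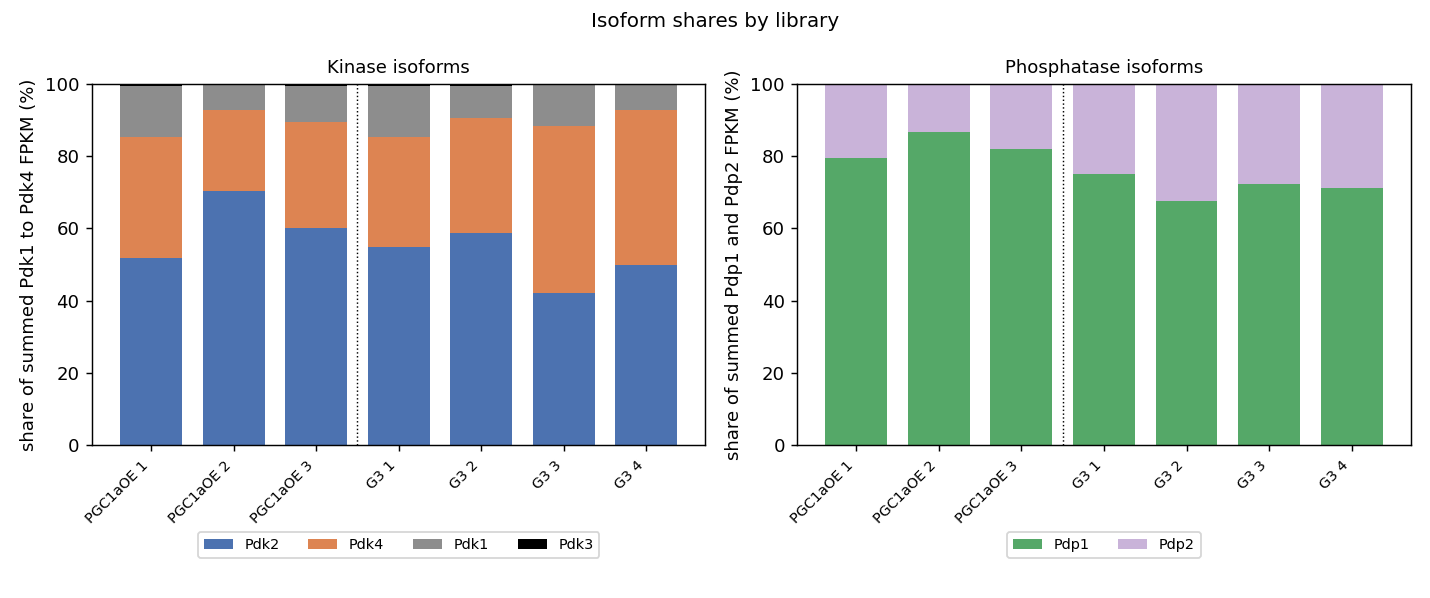
Shares of kinase FPKM taken by Pdk1 to Pdk4 (left) and of phosphatase FPKM taken by Pdp1 and Pdp2 (right), in percent, in each library, with the libraries labelled G3 PGC1aOE left of the dotted line and G3 right of it. Pdp1 holds 79.5% to 86.6% of phosphatase FPKM left of the line and 67.5% to 75.04% right of it, while the kinase shares overlap.

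Of the phosphatases, Pdp2 was lower without overlap, while the groups overlapped for Pdp1, and neither passed the test. PDP1 is the calcium-stimulated form found in muscle, and PDP2 is the form known to be insulin-responsive. Pdp2 stood at 9.78 CPM, 3.42 CPM and 10.2 CPM in the libraries labelled G3 PGC1aOE 1 to 3, against 11.5, 17.0, 17.7 and 19.3 CPM in G3 1 to 4, from 47 to 257 counts a library. No library labelled G3 PGC1aOE reached the lowest G3 library, although the gap to G3 1 was small. The means were 7.79 ± 3.79 CPM (SD, n = 3) in the libraries labelled G3 PGC1aOE and 16.4 ± 3.39 CPM (SD, n = 4) in G3. Its fitted log2 change was −1.07 ± 0.36 (SE, 95% interval −1.86 to −0.28, edgeR adjusted p = 0.847). The exact permutation p was 0.0286, unadjusted and the smallest that 35 arrangements can give. Without the library labelled G3 PGC1aOE 2 the log2 fold change was −0.72.

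Pdp1 measured 29.7 CPM, 17.3 CPM and 36.2 CPM in the libraries labelled G3 PGC1aOE 1 to 3, against 27.0, 27.6, 36.1 and 37.1 CPM in G3 1 to 4. Apart from the library labelled G3 PGC1aOE 2, the values of the groups lay in the same range. For Pdp1 the fit gave a log2 change of −0.21 ± 0.27 (SE, edgeR adjusted p = 0.877), and 0.043 without that library. Pdp1 took a larger share of the summed phosphatase FPKM, at 82.7% ± 3.59 (SD, n = 3) in the libraries labelled G3 PGC1aOE and 71.5% ± 3.11 (SD, n = 4) in G3, with no overlap. The share was 79.5%, 86.6% and 82.02% in the libraries labelled G3 PGC1aOE 1 to 3, against 75.04%, 67.5%, 72.4% and 71.1% in G3 1 to 4. The difference of 11.2 percentage points was 7.86 points below a code number of 80 and 13.2 points at 80 and above. Because the groups did not overlap, its sign within both was fixed.

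Pdha1, which encodes the alpha chain that the kinases phosphorylate, was set apart by 1 library. It stood at 668 CPM, 220.0 CPM and 698 CPM in the libraries labelled G3 PGC1aOE 1 to 3, against 733, 724, 825 and 769 CPM in G3 1 to 4. The G3 libraries lay close together, and the library labelled G3 PGC1aOE 2 lay far below all of them, while the other two were just under the lowest G3 library. The means were 529 ± 268 CPM (SD, n = 3) in the libraries labelled G3 PGC1aOE and 763 ± 45.7 CPM (SD, n = 4) in G3. Its fitted log2 change was −0.53 ± 0.38 (SE, edgeR adjusted p = 0.847), and −0.16 without the library labelled G3 PGC1aOE 2. The exact permutation p of log2 CPM was 0.0286, again the smallest possible and unadjusted. Map3k15, on the opposite strand, overlaps Pdha1 in the GENCODE annotation.

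Pdhb, the beta chain gene, was also lowest in that library, but close to the next library. It measured 418 CPM, 384 CPM and 686 CPM in the libraries labelled G3 PGC1aOE 1 to 3, against 438, 446, 555 and 628 CPM in G3 1 to 4, with overlap. Its fitted log2 change was −0.059 ± 0.29 (SE, edgeR adjusted p = 0.967), and its sign turned without either the library labelled G3 PGC1aOE 1, the library labelled G3 PGC1aOE 2 or G3 4. The log2 ratio of Pdha1 to Pdhb FPKM was 1.02, −0.46 and 0.37 in the libraries labelled G3 PGC1aOE 1 to 3, against 1.09, 1.05, 0.92 and 0.64 in G3 1 to 4. The mean was 0.31 ± 0.74 (SD, n = 3) in the libraries labelled G3 PGC1aOE and 0.93 ± 0.20 (SD, n = 4) in G3. The library labelled G3 PGC1aOE 1 lay among the G3 libraries and the other two lay below them. The difference of −0.61 was −0.23 without the library labelled G3 PGC1aOE 2, −0.97 without the library labelled G3 PGC1aOE 1, and 0.0035 among code numbers below 80. The level and sign of the ratio rest on lengths of 1166 bases for Pdha1 and 1485 for Pdhb. The longest GENCODE coding transcripts have 2848 and 1513. With those lengths the mean ratio was −0.95 in the libraries labelled G3 PGC1aOE and −0.34 in G3.

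Both carrier genes had positive fitted values that did not pass. Mpc1 measured 377 CPM, 291 CPM and 565 CPM in the libraries labelled G3 PGC1aOE 1 to 3, against 412, 318, 382 and 344 CPM in G3 1 to 4. Only the third of these lay above every G3 library, and without it the log2 fold change was −0.13, beside 0.18 ± 0.28 (SE) over all (edgeR adjusted p = 0.896). Mpc2 measured 186 CPM, 467 CPM and 452 CPM in the libraries labelled G3 PGC1aOE 1 to 3, against 201, 224, 344 and 308 CPM in G3 1 to 4. The first of these was the lowest of all 7 libraries and the other two were the highest. For Mpc2 the fit gave a log2 change of 0.45 ± 0.35 (SE, edgeR adjusted p = 0.847), 0.24 without the library labelled G3 PGC1aOE 2, 0.28 without the library labelled G3 PGC1aOE 3 and 0.77 without the library labelled G3 PGC1aOE 1. With the last number of the sample code, split at 80, as a covariate it was 0.033, and with the digit after the G 0.29. With each library's length trend removed it was 0.055 by GENCODE length and 0.46 by deposited length. In the GENCODE annotation 4930506C21Rik overlaps Mpc1 on the opposite strand, and Gm37860 overlaps Mpc2 on the same strand.

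The carrier subunits work as a pair, and the ratio of their messages was not fixed across libraries. The log2 ratio of Mpc1 to Mpc2 FPKM was 2.43, 0.73 and 1.74 in the libraries labelled G3 PGC1aOE 1 to 3, against 2.45, 1.92, 1.56 and 1.57 in G3 1 to 4. Its mean was 1.63 ± 0.86 (SD, n = 3) in the libraries labelled G3 PGC1aOE and 1.88 ± 0.42 (SD, n = 4) in G3, and the groups overlapped. The difference was −0.24 over all libraries, 0.21 without the library labelled G3 PGC1aOE 2, −0.64 without the library labelled G3 PGC1aOE 1 and −0.051 without G3 1. The level of the ratio rests on lengths of 678 bases for Mpc1 and 1806 for Mpc2, where the longest GENCODE coding transcripts have 961 and 1025.

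The ratio of kinase to phosphatase message overlapped between the groups. Summed kinase FPKM was 626.25, 402 and 350.2 in the libraries labelled G3 PGC1aOE 1 to 3, against 626.3, 662, 849.7 and 875 in G3 1 to 4, so that the library labelled G3 PGC1aOE 1 and G3 1 were level. Summed kinase FPKM exceeded summed phosphatase FPKM by 41.1-fold, 59.6-fold and 25.5-fold in the libraries labelled G3 PGC1aOE 1 to 3, against 43.7-fold, 39.1-fold, 46.6-fold and 48.4-fold in G3 1 to 4. The G3 libraries were close to each other, while those labelled G3 PGC1aOE held both the highest and the lowest value of the study. On the log2 scale the means were 5.31 ± 0.61 (SD, n = 3) in the libraries labelled G3 PGC1aOE and 5.47 ± 0.13 (SD, n = 4) in G3, a difference of −0.16 that was 0.16 without the library labelled G3 PGC1aOE 3 and −0.45 without the library labelled G3 PGC1aOE 2. Set against their substrate gene, the log2 ratio of summed kinase FPKM to Pdha1 was −0.026, 1.21 and −0.53 in the libraries labelled G3 PGC1aOE 1 to 3, against −0.12, −0.080, 0.27 and 0.49 in G3 1 to 4. The difference was 0.076 over all, 0.45 without the library labelled G3 PGC1aOE 3 and −0.42 without the library labelled G3 PGC1aOE 2, and its sign also turned without G3 1 (−0.012). The ratio of Pdp2 to Pdha1 did not overlap, at −7.67, −7.59 and −7.68 on the log2 FPKM scale in the libraries labelled G3 PGC1aOE 1 to 3, against −7.57, −6.99, −7.12 and −6.89 in G3 1 to 4. This ratio was computed after the values of Pdp2 had been seen. The fold of summed kinases over summed phosphatases depends on the lengths used. By the longest GENCODE coding transcripts it was 26.4, 38.4 and 16.5 in the libraries labelled G3 PGC1aOE 1 to 3. In G3 1 to 4 it was then 28.1, 25.5, 30.3 and 31.6.

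**Figure D4:**
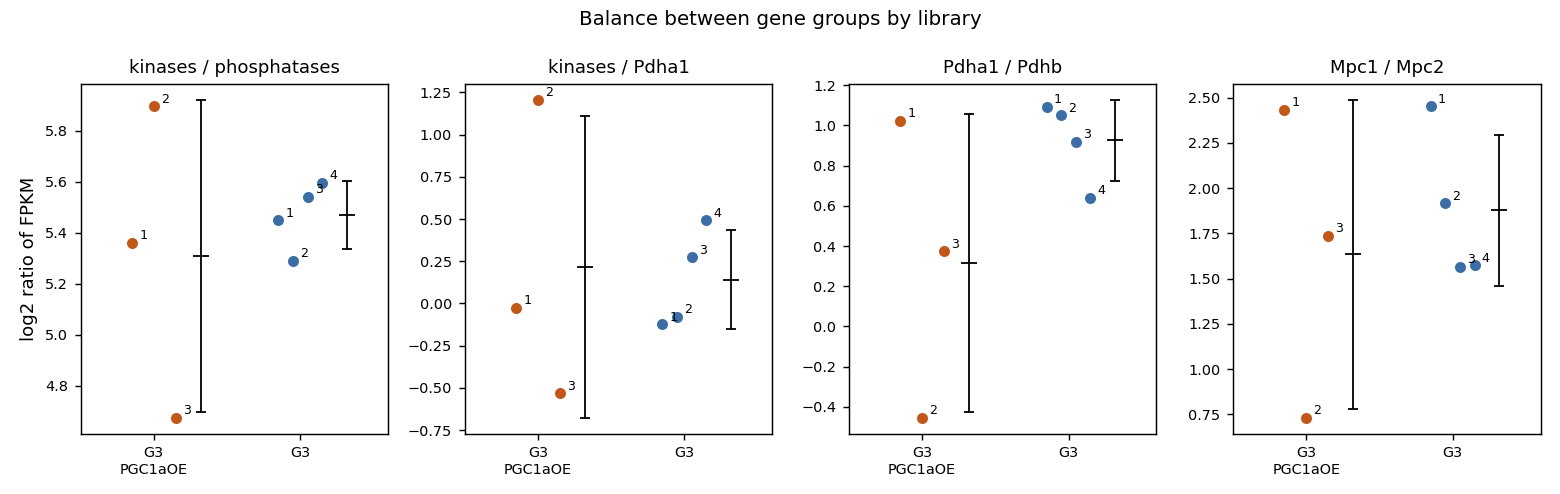
Log2 ratios of FPKM (y axis, own scale in each panel) for summed kinases over summed phosphatases, summed kinases over Pdha1, Pdha1 over Pdhb and Mpc1 over Mpc2, in the 3 libraries labelled G3 PGC1aOE (left, orange) and 4 G3 libraries (right, blue), with replicate numbers and mean ± SD. The libraries labelled G3 PGC1aOE spread more widely in all 4 panels, and library 2 of that group is at an extreme in each.

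Other genes of the pathway were read from lists. Of 9 further genes of the complex and its cofactors, 7 were lower and 2 higher in the libraries labelled G3 PGC1aOE, a median of −0.20 on the log2 scale, and 0 passed edgeR's test (0 at an unadjusted p under 0.05). Pdpr, the regulatory subunit of PDP1, had −0.89 ± 0.58 (SE), from 55.4 CPM, 5.90 CPM and 43.1 CPM in the libraries labelled G3 PGC1aOE 1 to 3, against 54.2, 67.5, 66.2 and 69.5 CPM in G3 1 to 4. As with Pdha1, the library labelled G3 PGC1aOE 2 was far below the rest. Dlat, the E2 core, had −0.41 ± 0.28 (SE). The related kinase and phosphatase of branched-chain ketoacid dehydrogenase, Bckdk and Ppm1k, had −0.093 ± 0.21 (SE) and −0.45 ± 0.25 (SE).

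Of 11 genes that make or use pyruvate, 6 were higher and 5 lower, with a median of 0.015 and 0 past the threshold (1 at an unadjusted p under 0.05). That gene was Pcx, pyruvate carboxylase, which turns pyruvate into oxaloacetate. It measured 24.5 CPM, 23.1 CPM and 22.5 CPM in the libraries labelled G3 PGC1aOE 1 to 3, against 36.7, 42.5, 35.3 and 31.9 CPM in G3 1 to 4. The groups did not overlap (log2 fold change −0.65, SE 0.19, edgeR adjusted p = 0.847). All 7 genes of glucose entry were lower by the fitted value, with a median of −0.25 and 0 at an unadjusted p under 0.05. Of these, Hk2, the muscle hexokinase, had −0.46 ± 0.36 (SE). Among code numbers below 80, log2 CPM was higher for Slc2a1 (0.065), Hk1 (0.24), Hk2 (0.046) and Pfkfb2 (0.23), and lower for the rest of this list. At 80 and above it was higher for Slc2a1 (0.29) and Pfkfb2 (0.12), and lower for the rest. Each of these differences has a lone library on one side, the library labelled G3 PGC1aOE 1 below 80 and G3 4 at 80 and above.

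Genes known to regulate one or more of the kinases were lower by the fitted value in 11 of 12 cases, all but Hif1a (0.0074), with a median of −0.35, 0 past the threshold and 2 at an unadjusted p under 0.05. The code numbers divided them, with the library labelled G3 PGC1aOE 1 alone for its group below 80 and G3 4 alone at 80 and above. Below 80, log2 CPM was higher for Ppargc1a (0.26), Esrrg (0.20), Foxo1 (0.19), Foxo3 (0.14), Nr3c1 (0.15) and Hif1a (0.74), and lower for the rest of the list. At 80 and above every gene of the list was lower. Ppara, the fatty acid receptor PPARalpha, measured 21.04 CPM, 3.42 CPM and 20.9 CPM in the libraries labelled G3 PGC1aOE 1 to 3, against 23.6, 41.1, 34.7 and 36.7 CPM in G3 1 to 4. The groups did not overlap, and the library labelled G3 PGC1aOE 2 was far below the rest, as for Pdha1 and Pdpr (log2 fold change −1.17, SE 0.52, edgeR adjusted p = 0.847). Ppargc1b, the coactivator related to Ppargc1a, had −0.98 ± 0.41 (SE). Of 16 fatty acid genes that PPARs are known to raise, 15 were lower and 1 higher, with a median of −0.38, 0 past the threshold and 2 at an unadjusted p under 0.05, Acot1 (−1.34, SE 0.27) and Ehhadh (−0.76, SE 0.27). Below a code number of 80, log2 CPM was higher for Acot2 (0.22), Cpt1b (0.17) and Cpt1a (0.16) and lower for the rest, and at 80 and above all were lower. The lists were chosen with earlier results of these data known, so these counts describe the libraries and are not independent evidence of a direction.

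The 5 genes whose profile over the 7 libraries lay nearest to that of Pdk4, out of 10138 whose log2 CPM averaged 2 or more, were Tbc1d4, Scn4a, Dmd, Pank1 and Acsl1. Nearness was the root mean square difference of log2 CPM after centring each gene, and it was 0.26 for Tbc1d4, 0.30 for Scn4a, 0.31 for Dmd, 0.31 for Pank1 and 0.32 for Acsl1. Tbc1d4 measured 73.6 CPM, 39.4 CPM and 44.8 CPM in the libraries labelled G3 PGC1aOE 1 to 3, against 69.9, 63.5, 124 and 92.8 CPM in G3 1 to 4. Like Pdk4, it was higher in G3 3 and G3 4 than in the other 5 libraries, a likeness that follows from its choice as the nearest profile. Among the set itself, the nearest to Pdk4 were Pdp2 at 0.45 and Pdk1 at 0.46, with 152 and 184 other genes nearer.

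Levels of cell types and of the tissue clock varied between libraries as well. The summed CPM of 10 cardiomyocyte markers ran from 51473 to 77961 in the libraries labelled G3 PGC1aOE and from 49224 to 64584 in G3, with 5 markers higher and 5 lower. None passed the test, and their fitted log2 changes ran from −0.95 for Ryr2 to 0.73 for Myl2. Fibroblast markers were higher in 9 of 10 cases, 6 of the 10 at an unadjusted p under 0.05 and 0 past the threshold, with summed CPM from 1282 to 1829 in the libraries labelled G3 PGC1aOE against 648 to 1221 in G3. Within G3 the sums were 1176 and 1221 in G3 1 and G3 2, and 750 and 648 in G3 3 and G3 4, the libraries with high Pdk4. Single markers differed in this, as Dcn measured 595, 752, 379 and 282 CPM in G3 1 to 4 and Col3a1 62.7, 41.7, 68.4 and 69.4 CPM. Of 8 endothelial markers 7 were higher, with summed CPM from 742 to 1299 in the libraries labelled G3 PGC1aOE against 747 to 866 in G3, and of 8 macrophage markers 7 were higher, from 291 to 356 in the libraries labelled G3 PGC1aOE against 161 to 392 in G3. All 6 tested adipocyte markers were higher, with sums from 9.01 to 56.9 in the libraries labelled G3 PGC1aOE against 1.503 to 35.6 in G3, and Ucp1, which defines brown fat, was at 0 in every library. In bulk tissue, fewer cells of a type and less RNA per cell cannot be told apart. The part of these cell types in the values of Pdk4, Pdp2 and the rest was not tested.

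Atrial markers varied most of these lists, with 4 of 4 tested higher and summed CPM from 468 to 3924 in the libraries labelled G3 PGC1aOE and from 72.3 to 2803 in G3. Nppa made up most of each sum. It measured 3921, 448 and 1246 CPM in the libraries labelled G3 PGC1aOE 1 to 3, against 2400, 2477, 70.4 and 599 CPM in G3 1 to 4. Myl7 ran differently, at 0, 7.86 and 420 CPM in the libraries labelled G3 PGC1aOE 1 to 3, against 113, 141, 0.718 and 0.451 CPM in G3 1 to 4. Sln and Myl4 were, like Myl7, highest in the library labelled G3 PGC1aOE 3, at 189 and 433 CPM. No skeletal muscle marker was abundant enough to test, with sums of 1.33 to 1.82 CPM in the libraries labelled G3 PGC1aOE against 0.807 to 2.36 CPM in G3. Erythroid markers were lower in 4 of 5, with sums from 384 to 1196 in the libraries labelled G3 PGC1aOE against 119 to 1733 in G3. Of 14 clock genes 8 were higher and 6 lower, with a median of 0.17. Arntl, the clock's activator gene, measured 6.44 CPM, 0.874 CPM and 1.84 CPM in the libraries labelled G3 PGC1aOE 1 to 3, against 9.67, 8.20, 21.2 and 0.451 CPM in G3 1 to 4. Both groups thus held libraries with high and with low Arntl, and the part of the clock in the level of Pdk4 was not tested.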

How the data were processed

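Messenger RNA of left ventricle was sequenced in 3 libraries labelled G3 PGC1aOE and 4 labelled G3, grouped by their titles. The authors deposited read counts per Ensembl gene, whole numbers with no normalization, and FPKM. The deposited FPKM equalled the counts over the column total and over 1 length per gene, within 0.00228 bases across libraries. The build named in the submitters' processing notes is mm9, and the tools named there are Bowtie 0.12.2 and CASAVA. How reads were counted, on which annotation and with what use of strand, is not given in the sources used here, so overlapping genes and copies such as the Mpc1 pseudogene remain uncertain. Per the labels' protocols, the kit was Illumina TruSeq RNA, which does not mark strand.

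Symbols were found for 21748 of 22027 identifiers, and the 279 others held at most 0.0295% of counts. Counts were filtered with filterByExpr, which kept 12674 genes, scaled by TMM and tested with edgeR 4.0.16 in R 4.3.3 (quasi-likelihood, robust, group as the only term, Benjamini-Hochberg at 0.05). Log2 CPM used a prior count of 2. Single genes were also compared by an exact permutation test over 35 arrangements. Shares and ratios came from FPKM. Alternatives used DESeq2 1.42.0, limma 3.58.1, other scalings, filters and covariates, lengths from GENCODE M21, and each library left out. As a covariate, the code number entered only as below 80 or as 80 and above. The fit was tested on simulated counts, where it recovered 4% of 2-fold changes, 81.5% of 4-fold changes and 98% of 8-fold changes. A change of 2-fold would thus mostly be missed. All 10 genes are named. Of each other list at most 3 tested genes of smallest p were to be named, and further genes, such as Hif1a, Dcn, Col3a1 and Nppa, were chosen after their values were seen. The genes and lists were chosen with earlier results of these data known. Replicate numbers were not used as pairs in the main fit.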

Additional observations from a re-analysis of the deposited data

How the results depend on the processing

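No alternative called any of the 10 genes, and the lowest adjusted p of any of them in 21 other fits across all genes was 0.133. Of 220 fold changes of the 10 genes under alternatives, 210 kept their direction. Pdhb turned with limma voom (0.14) and the replicate block (0.010). It also turned without the libraries labelled G3 PGC1aOE 1 (0.046) or 2 (0.096) and without G3 4 (0.051). Pdp1 turned without the library labelled G3 PGC1aOE 2 (0.043), and Pdk3 with the code number, split at 80, as a covariate (0.086). Mpc1 turned without the library labelled G3 PGC1aOE 3 (−0.13). It also turned with each library's length trend removed, by deposited length (−0.12) or GENCODE length (−0.11), both chosen after seeing the data. The exact permutation test put Pdp2 (−1.18 in log2 CPM) and Pdha1 (−0.70) at its smallest p. All genes called numbered 3 with DESeq2 and 4 with the replicate block, which leaves out G3 4, against 0. Same-numbered libraries correlated in their deviations at 0.409, 0.328 and 0.052, and differently numbered ones at −0.404 to 0.154. The libraries labelled G3 PGC1aOE 1 and 2 thus correlated best with G3 1 and G3 2. The library labelled G3 PGC1aOE 3 correlated better with G3 2 (0.154) than with G3 3. The labels state no pairing, and the main fit did not take the numbers as pairs. Whether the libraries are paired is not settled by these values.

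Leaving out each library in turn gave ranges of −1.07 to −0.29 for Pdk1, −0.47 to −0.27 for Pdk2, −0.45 to −0.012 for Pdk3, −1.40 to −0.89 for Pdk4, −0.45 to 0.043 for Pdp1, −1.31 to −0.72 for Pdp2, −0.78 to −0.16 for Pdha1, −0.37 to 0.096 for Pdhb, −0.13 to 0.37 for Mpc1 and 0.24 to 0.77 for Mpc2. Among code numbers below 80 the difference was −0.095 points for the Pdk2 share, 7.86 points for the Pdp1 share, 0.0035 for Pdha1 to Pdhb and 0.46 for Mpc1 to Mpc2, and at 80 and above −16.9 points for the Pdk4 share. Below 80 the library labelled G3 PGC1aOE 1 stood alone for its group, and at 80 and above G3 4 did. The cause of these differences was not tested. Depth was lowest for Pdk3, at 23 to 50 counts a library. A value that misses the threshold with 3 and 4 libraries does not show that the groups are alike.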
